A study of Rattus norvegicus with 44 samples.

Results

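Homeostatic microglia genes are those that resident macrophages of the brain express while they survey undamaged tissue. The 9 genes described here were taken as a named list: Aif1, Cx3cr1, P2ry12, P2ry13, Csf1r, Gpr34, Sall1, Laptm5 and Olfml3. All 9 had a row in both deposited tables, which shared 19882 rows, and all 9 passed the filter on low values in both regions, where 14915 genes in CA1 and 14904 in the dentate gyrus (DG) were tested. The list was made by name, with earlier results of these data known. In the RefSeq annotation of GRCr8, P2ry12, P2ry13 and Olfml3 lie on chromosome 2, Laptm5 on 5, Cx3cr1 on 8, Csf1r on 18, Sall1 on 19, Aif1 on 20 and Gpr34 on X. Polyadenylated RNA was sequenced from CA1 and DG of 1 hippocampus from each of 22 male rats, which gave 44 libraries. The young LPS group held 8 rats of 5 to 7 months injected intraperitoneally with the bacterial endotoxin lipopolysaccharide (LPS) at 1 mg per kg every week over 7 weeks. The aged vehicle group held 6 rats of 14 to 16 months, and the young vehicle group 8 rats of 5 to 7 months, both injected with saline on the same schedule. Tissue was taken 48 hours after the last injection. The strain is not given in the labels, and no aged rats received LPS. Each library is bulk tissue, so fewer microglia and less RNA per microglial cell cannot be told apart.

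Microglia depend on signalling through the CSF1 receptor, encoded by Csf1r, whose ligands CSF1 and IL-34 come from neurons and glia. They read the state of neurons through fractalkine and its receptor, Cx3cr1, and sense leaking nucleotides through P2Y receptors that steer their processes towards damage. In mice, the transcription factors PU.1, IRF8 and SALL1 together hold the resting identity, and transcripts such as P2ry12 are known to fall when microglia become inflamed.

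Of the 9 genes, 6 have a promoter of 300 bases in the RefSeq table used, running from 250 bases before to 50 after the annotated start on build GRCr8. The letters GAGGAA, a core sequence bound by PU.1, were searched on both strands, as was GGAANNGAA, a composite of PU.1 and IRF8. GAGGAA was in 3 of the 6 promoters, those of Csf1r (2 matches), Gpr34 and Laptm5, against 27.6% of 33469 promoters of the same length. GGAANNGAA was in 0 of the 6, against 9.32% of all. The 3 promoters with a match are shown, and a link of the matches to any change or correlation described further on was not tested. Each is written 5′ to 3′ on the strand of its gene, and capitals mark the match, read as TTCCTC because all 4 matches lie on the opposite strand. The Csf1r window is chr18:56834129-56834428 (plus strand), that of Laptm5 is chr5:148371630-148371929 (plus strand) and that of Gpr34 is chrX:11785787-11786086 (minus strand). The matches begin 229 and 95 bases before the start in Csf1r, 63 before it in Laptm5 and 12 before it in Gpr34. A match is a description of these letters and no evidence of binding.
Csf1r promoter: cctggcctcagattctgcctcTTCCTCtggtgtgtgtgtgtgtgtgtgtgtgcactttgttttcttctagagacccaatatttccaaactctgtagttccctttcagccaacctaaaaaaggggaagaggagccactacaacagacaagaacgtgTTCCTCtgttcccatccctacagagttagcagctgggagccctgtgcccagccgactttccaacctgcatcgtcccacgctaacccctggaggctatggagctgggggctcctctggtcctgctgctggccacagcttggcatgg
Laptm5 promoter: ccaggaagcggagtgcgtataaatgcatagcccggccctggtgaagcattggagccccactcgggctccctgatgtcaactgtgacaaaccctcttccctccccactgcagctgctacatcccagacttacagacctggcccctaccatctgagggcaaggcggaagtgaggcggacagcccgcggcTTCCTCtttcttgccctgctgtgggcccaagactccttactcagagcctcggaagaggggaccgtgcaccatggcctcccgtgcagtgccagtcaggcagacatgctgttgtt
Gpr34 promoter: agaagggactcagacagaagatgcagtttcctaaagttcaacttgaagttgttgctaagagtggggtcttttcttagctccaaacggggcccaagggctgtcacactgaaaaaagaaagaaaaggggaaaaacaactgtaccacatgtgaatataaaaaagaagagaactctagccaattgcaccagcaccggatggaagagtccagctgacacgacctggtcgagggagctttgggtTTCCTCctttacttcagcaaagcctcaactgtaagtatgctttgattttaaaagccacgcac

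Libraries held 12292346 to 18749663 recovered reads in CA1 and 12130182 to 23519791 in DG. Values are the authors' normalized counts. The median number of reads behind a member in a region ran from 69 for P2ry13 in DG to 2162 for Csf1r in CA1, and counting error alone was 2.12% to 11.99% of the mean. Pooled over the 3 groups, the spread between rats of a group was larger for every member. This pooled spread ran from 14.6% of the mean for P2ry12 to 56.1% for Olfml3, both in DG. In single groups the spread ran from 4.1% for Csf1r in young LPS to 67.3% for Olfml3 in young vehicle, both in DG. The dissection was checked with region markers in RPM, reads scaled to the depth of each library. Fibcd1 lay between 237.5 and 661 RPM in CA1 libraries and between 11.1 and 97.0 in DG libraries, without overlap. Pou3f1 lay between 77.1 and 162 in CA1 libraries and between 1.95 and 49.4 in DG libraries, also without overlap. Prox1, a marker of dentate granule cells, lay between 19.5 and 115 in CA1 libraries and between 109.7 and 258 in DG libraries, so these ranges met. C1ql2 and Dsp, other granule cell markers, also overlapped between the regions. The median log2 change of 5 granule cell genes in CA1 was -0.68 for LPS, -0.38 for age and -0.33 for LPS against aged vehicle. That of 6 CA1 pyramidal genes in DG was 0.15, 0.80 and -0.65 in the same order. In these comparisons 0 genes of either list passed the threshold. Libraries of a group spread widely. The log2 mean of those 6 genes had an SD of 1.44 in young vehicle, 1.25 in LPS and 1.17 in aged DG libraries. For the 5 granule cell genes the SD was 0.31 in young vehicle, 1.33 in LPS and 0.62 in aged CA1 libraries. A difference between the groups in this mixing of regions was therefore not established. The part of this admixture in the members' changes was not tested. In DG, 3 libraries stood apart by markers of perivascular macrophages and meningeal fibroblasts: aged rat 2532 and young vehicle rats 2526 and 2572. Relative to the mean of all DG libraries their perivascular macrophage genes averaged 1.37, 1.37 and 1.88 on the log2 scale, and the next library was at 0.50. Where a member's LPS or age change printed here moves by over 1.5 times without these 3 rats, it is given both ways; without them 0 members passed in any comparison. Of 6 lymphocyte markers, 5 were below the filter in both regions, with 1 to 42 reads each over all libraries of a region. The sixth, Cd3e, a T cell marker, was not: summed levels of the list reached 247 normalized counts in a young LPS library of CA1. Of the monocyte and neutrophil markers measured, Csf3r passed the filter in both regions and the summed level of the list reached 168 in an aged library of CA1.

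Across the 3 comparisons in each region, 1 of 54 tests of a member passed the threshold. Gpr34 was lower in young LPS than in aged vehicle rats in CA1, by 0.87 on the log2 scale. In that comparison 8.73% of all genes passed. No other member passed, which does not show that they did not differ. For no member and no pair of groups did the libraries separate without overlap. The share of all genes that separated in this way is not given here. Neither LPS nor age, each set against young vehicle, gave a member past the threshold in either region.

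**Figure D1:**
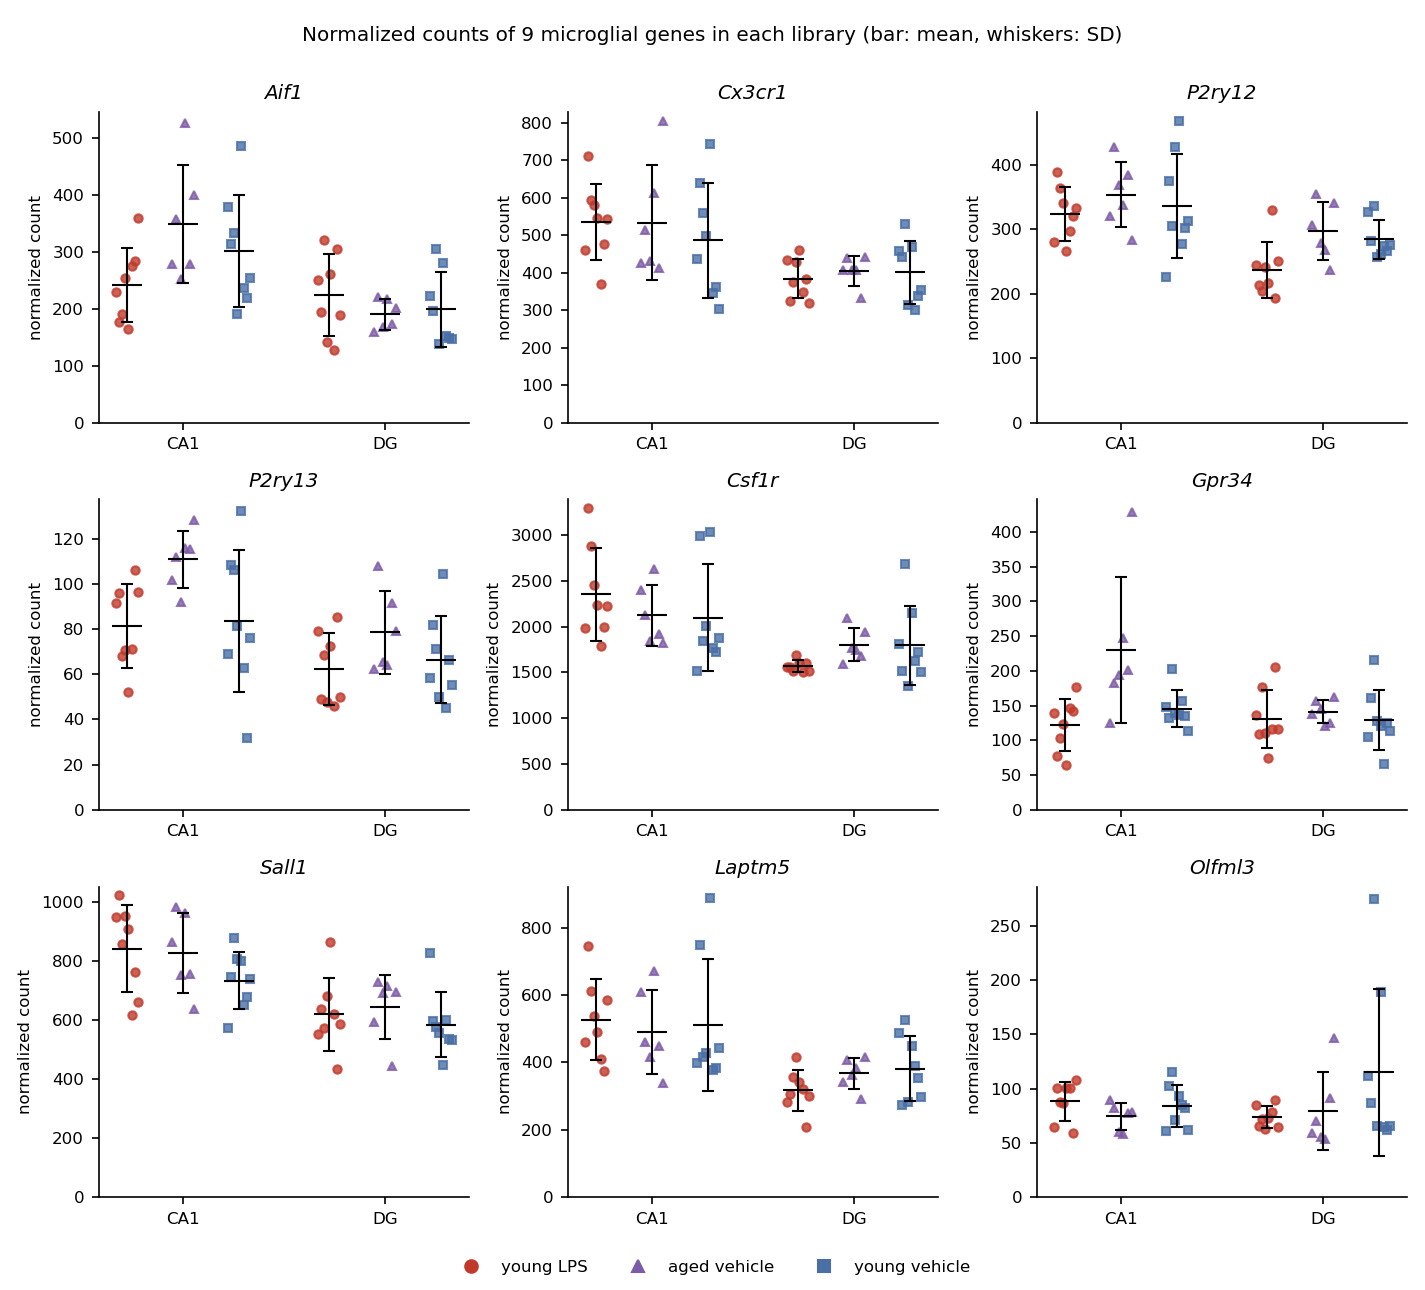
Normalized counts (vertical axis, from 0) of the 9 genes in each of 44 libraries, in CA1 and DG. Points are libraries of young LPS (circles), aged vehicle (triangles) and young vehicle rats (squares), bars are means and whiskers are SD. The groups overlap in every panel, and the Gpr34 panel shows the aged CA1 library at 429 above all others.

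For LPS in CA1, 0 of 9 members passed an adjusted p of 0.05, where 0% of all genes did. At an unadjusted p below 0.05 the count was 0 of 9, against 6.87% of all genes. Counts on recovered reads with edgeR and with DESeq2 were also 0. The 95% intervals of the 9 log2 changes lay between -0.74 and 0.54, so changes beyond those bounds were outside all of them. The median change of the members was 0.08, and that of all genes 0.01. In DG, 0 of 9 members passed the adjusted threshold (0.0134% of all genes) and 1 of 9 the unadjusted one (7.53% of all genes), with 0 adjusted calls by edgeR and by DESeq2. The intervals there lay between -0.96 and 0.56, and the median was -0.08, with -0.00 for all genes.

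For age in CA1, 0 of 9 members passed the adjusted threshold (0.0134% of all genes) and 2 of 9 the unadjusted one (12.6% of all genes). Both were higher in aged rats, and the median change was 0.15, with 0.00 for all genes. In DG the counts were 0 of 9 adjusted (0.0134% of all genes) and 0 of 9 unadjusted (2.99% of all genes). edgeR and DESeq2 gave 0 adjusted calls among the members in both regions. For young LPS against aged vehicle in CA1, 1 of 9 members passed the adjusted threshold, against 8.73% of all genes, and 2 of 9 the unadjusted one, against 35.8% of all genes, so the members' share was close to or below that of all genes. In DG the counts were 0 of 9 adjusted (0.0134% of all genes) and 1 of 9 unadjusted (9.1% of all genes), with 0 adjusted calls by edgeR and by DESeq2. The comparisons share groups: LPS and age use the same young vehicle libraries, and the third comparison uses the LPS and aged libraries again.

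**Figure D2:**
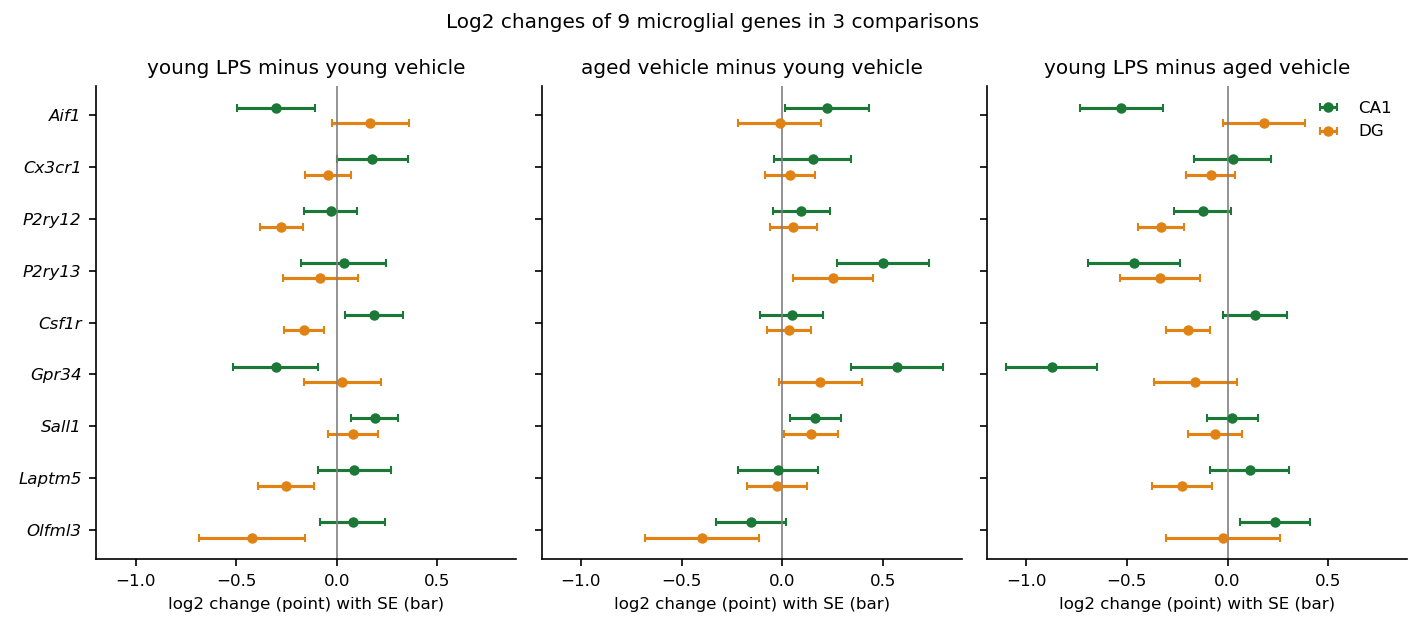
Log2 change (horizontal axis) of each gene with its SE, in CA1 and DG, for LPS over young vehicle (left), age over young vehicle (middle) and LPS over aged vehicle (right). The point farthest from 0 is Gpr34 in CA1 in the right panel, at -0.87.

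Gpr34 encodes a G protein-coupled receptor for lysophosphatidylserine. In CA1 the lowest, median and highest values were 64.7, 131.5 and 177 normalized counts in young LPS, 126, 198 and 429 in aged vehicle, and 113, 138 and 203 in young vehicle. All 8 LPS libraries lay below the aged median, and 5 of 6 aged libraries lay above the highest LPS library. The 8 LPS libraries averaged 122 ± 37.8 (SD) and the 6 aged libraries 230.0 ± 105 (SD), a log2 change of -0.87 (SE 0.23, 95% interval -1.34 to -0.41, limma adjusted p = 0.049). That value sits at the edge of the threshold: the 1302 genes called in this comparison had adjusted p-values from 0.0244 to 0.0499, with a median of 0.049. Aged rat 2532, at 429, was highest, and the other 5 aged rats ran from 126 to 248. Without it the change was -0.67 (limma adjusted p = 0.121), and 0 of all genes passed, with 3676 at an unadjusted p below 0.05. The call was also lost on leaving out any of 14 other libraries: LPS rats 2404, 2408, 2527, 2543 and 2717, aged rats 2415, 2420 and 2531, and young vehicle rats 2410, 2526, 2571, 2722, 2728 and 2731. Over all 22 such fits the adjusted p ran from 0.0223 to 0.121, and the change stayed negative. The same library also had the fewest reads in CA1 and high perivascular macrophage markers (0.70 above the CA1 mean on the log2 scale, the second highest of the region); their part in the result was not tested. Against young vehicle, the changes of Gpr34 in CA1 were -0.30 (SE 0.21, limma adjusted p = 0.654) for LPS and 0.57 (SE 0.23, limma adjusted p = 0.393) for age. The LPS change was -0.18 without LPS rat 2543, and the age change was 0.37 without aged rat 2532.

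In DG the groups of Gpr34 lay closer together. The lowest, median and highest values were 74.5, 117 and 206 in young LPS, 121, 141 and 163 in aged vehicle, and 66.0, 122 and 215 in young vehicle. The aged libraries lay inside the range of both other groups. The change of young LPS against aged vehicle was -0.16 (SE 0.21, limma adjusted p = 0.868).

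P2ry12 and P2ry13 encode receptors for ADP, the signal that draws microglial processes to injury. In DG, P2ry12 had a lowest, median and highest value of 193, 229 and 330 in young LPS, 236, 292 and 354.5 in aged vehicle, and 256, 274.5 and 336 in young vehicle. In DG, 7 of 8 LPS libraries lay below the vehicle median and below the aged median, and the exception was rat 2547 at 330. The log2 change of LPS was -0.28 (SE 0.11, 95% interval -0.50 to -0.06, limma adjusted p = 0.561), and against aged vehicle -0.33 (SE 0.12, limma adjusted p = 0.383). Both were below 0.05 before adjustment over all genes, and neither passed it. Over the alternative settings the LPS change ran from -0.35 without LPS rat 2547 to -0.24 without LPS rat 2573. In CA1 the lowest, median and highest values were 267, 326 and 389 in young LPS, 283, 353 and 427 in aged vehicle, and 226, 309 and 468 in young vehicle. These ranges overlapped throughout, with an LPS change of -0.03 (SE 0.13) and an age change of 0.09 (SE 0.14). Leaving out rats 2526, 2572 and 2532 gave 0.04 for LPS and 0.22 for age.

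For P2ry13 in CA1, the lowest, median and highest values were 52.1, 81.2 and 106 in young LPS, 92.0, 114 and 128 in aged vehicle, and 32.0, 78.6 and 132 in young vehicle. All 6 aged libraries lay above the young vehicle median, yet the young vehicle library of rat 2572, at 132, exceeded every one of them. The age change was 0.50 (SE 0.23, limma adjusted p = 0.393). All 8 LPS libraries lay below the aged median, with a log2 difference of -0.47 (SE 0.23, limma adjusted p = 0.143). Young vehicle rat 2728, at 32.0, was lowest, and without it the age change was 0.32. In DG the lowest, median and highest values were 46.1, 59.3 and 85.3 in young LPS, 62.2, 72.3 and 108 in aged vehicle, and 44.9, 62.3 and 104 in young vehicle. The aged change there was 0.25 (SE 0.20), and the LPS change -0.08 (SE 0.19). These became 0.38 for age and 0.06 for LPS without rats 2526, 2572 and 2532.

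Csf1r encodes the receptor on which survival of microglia depends. In CA1 its lowest, median and highest values were 1783, 2228 and 3293 in young LPS, 1817, 2024 and 2633 in aged vehicle, and 1517, 1857 and 3035 in young vehicle. The groups overlapped, and the LPS change was 0.18 (SE 0.15), the age change 0.05 (SE 0.16), which was 0.16 without rats 2526, 2572 and 2532. In DG the 8 LPS libraries were close together, from 1503 to 1695 with a median of 1557. The aged libraries there ran from 1594 to 2090 with a median of 1757, and the vehicle libraries from 1352 to 2681 with a median of 1677. All 8 LPS libraries lay below the aged median, and the SD was 64.4 in LPS, 182 in aged and 431 in vehicle libraries. The change against young vehicle was -0.16 (SE 0.10, limma adjusted p = 0.749) and against aged vehicle -0.20 (SE 0.11, limma adjusted p = 0.605). Vehicle rats 2526 and 2572, at 2681 and 2145, were the highest DG libraries of all, and without rats 2526, 2572 and 2532 the LPS change was -0.01.

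Cx3cr1 encodes the fractalkine receptor. Its lowest, median and highest values in CA1 were 369, 544 and 712 in young LPS, 411, 473 and 804 in aged vehicle, and 303.5, 465.9 and 744 in young vehicle. In DG they were 319, 379 and 459 in young LPS, 331, 407 and 443 in aged vehicle, and 301, 397 and 530 in young vehicle. The groups overlapped in both regions. The LPS changes were 0.18 (SE 0.18) in CA1 and -0.04 (SE 0.11) in DG, and the age changes 0.15 (SE 0.19) and 0.04 (SE 0.12). Without rats 2526, 2572 and 2532 the LPS changes were 0.33 in CA1 and 0.07 in DG, and the age change in DG was 0.13. With the number series (leading digits of the animal number) as a term, the LPS changes were 0.07 in CA1 and -0.14 in DG. The age changes in that fit were 0.0083 in CA1 and -0.10 in DG.

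Sall1 encodes a zinc finger transcription factor whose loss in mice takes microglia out of their resting state. Its lowest, median and highest values in CA1 were 618, 882 and 1023 in young LPS, 636, 810 and 983 in aged vehicle, and 574, 742 and 877 in young vehicle. In DG they were 436, 604 and 865 in young LPS, 445, 694 and 728 in aged vehicle, and 447, 567 and 827 in young vehicle. The sign was positive in both regions against young vehicle: the LPS changes were 0.19 (SE 0.12) in CA1 and 0.08 (SE 0.12) in DG, and the age changes 0.16 (SE 0.13) and 0.14 (SE 0.13). None passed, with limma adjusted p-values of 0.653 and 0.913 for LPS and 0.505 and 1.00 for age. With rats 2526, 2572 and 2532 left out, the LPS change in DG was 0.02, and the age changes were 0.30 in CA1 and 0.05 in DG. With the number series as a term, the LPS changes were 0.11 in CA1 and 0.03 in DG. The age changes in that fit were 0.03 in CA1 and 0.03 in DG.

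Aif1 encodes IBA1, a calcium-binding protein that is the usual antibody label for microglia. In CA1 its lowest, median and highest values were 163, 241 and 358 in young LPS, 253, 318 and 525 in aged vehicle, and 190.5, 284 and 486 in young vehicle. In CA1, 7 of 8 LPS libraries lay below the aged median, and the log2 difference was -0.53 (SE 0.21, limma adjusted p = 0.0806). In DG the values were 128, 223 and 320 in young LPS, 159, 187 and 221 in aged vehicle, and 137, 174 and 305 in young vehicle. The LPS change was -0.30 (SE 0.19) in CA1 and 0.17 (SE 0.19) in DG, opposite in sign, and the groups overlapped in both regions. These values were -0.14 in CA1 and 0.37 in DG without rats 2526, 2572 and 2532. The DG value was 0.03 with the number series (leading digits of the animal number) as a term. The groups are not balanced over these series.

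Laptm5 encodes a lysosomal membrane protein of blood-derived cells and microglia. Its lowest, median and highest values in CA1 were 375, 514 and 744 in young LPS, 340, 454 and 672 in aged vehicle, and 377, 423 and 888 in young vehicle. In DG they were 208, 313 and 417 in young LPS, 292, 373 and 415 in aged vehicle, and 273, 370.2 and 525.9 in young vehicle. In DG, 7 of 8 LPS libraries lay below the vehicle median, and the log2 difference was -0.25 (SE 0.14, limma adjusted p = 0.695). The LPS change in CA1 was 0.09 (SE 0.18). Leaving out rats 2526, 2572 and 2532 moved these to -0.12 in DG and 0.20 in CA1.

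Olfml3 encodes a secreted olfactomedin-domain glycoprotein. Its lowest, median and highest values in CA1 were 58.8, 94.1 and 108 in young LPS, 58.3, 78.3 and 89.5 in aged vehicle, and 60.8, 83.2 and 115 in young vehicle. In DG they were 62.5, 72.2 and 89.3 in young LPS, 53.6, 65.0 and 147 in aged vehicle, and 62.2, 76.4 and 274 in young vehicle. The 3 highest DG values came from the libraries that stood apart, 147 in aged rat 2532 and 274 and 189 in vehicle rats 2526 and 2572. The LPS change in DG was -0.42 (SE 0.26, limma adjusted p = 0.752), and without those rats it was -0.02. The genes most like Olfml3 in DG were Crispld2, Hbb and Des, at correlations of 0.92, 0.90 and 0.90 with group means removed. None of its 50 most alike genes there was another member or a gene of the wider microglial list. The same was true in DG of Aif1, Cx3cr1, Gpr34, Sall1 and Laptm5.

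**Figure D3:**
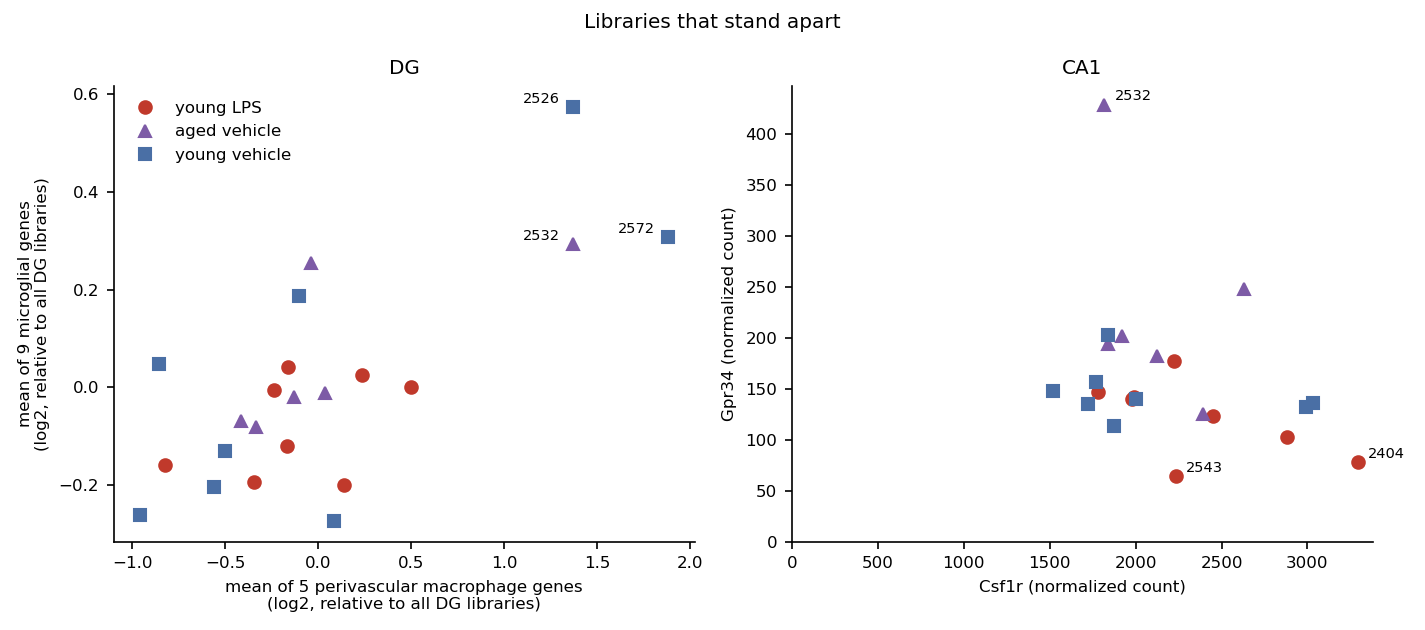
Left, mean of the 9 genes in each DG library (vertical axis, log2 relative to all DG libraries) against the mean of 5 perivascular macrophage genes (horizontal axis, same scale). Right, Gpr34 against Csf1r in each CA1 library, in normalized counts from 0. Rats 2526, 2572 and 2532 are the 3 right-most DG points and the highest 3 in the members' mean, at 0.57, 0.31 and 0.29, and aged rat 2532 is the highest for Gpr34 in CA1.

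Whether a change differed between the regions was tested on each rat's own CA1 value less its DG value, which leaves out any constant difference between the 2 separately normalized tables. For LPS, 0 of 9 members passed the adjusted threshold (0% of all genes) and 1 of 9 the unadjusted one (13.4% of all genes). The 1 was Aif1, with -0.30 in CA1, 0.17 in DG and a difference of -0.47 (SE 0.23, limma adjusted p = 0.369). Fitted without the rat as a block, it did not pass the unadjusted threshold. For age, 0 of 9 members passed the adjusted threshold (0% of all genes) and 0 of 9 the unadjusted one (5.52% of all genes). In RPM, 8 of 9 members had a higher mean in CA1 than in DG, by 1.22 times for Gpr34 to 1.46 times for Laptm5, and Olfml3 was at 0.94 times. For Olfml3 the per-rat ratio had a median of 1.15, with 14 of 22 rats higher in CA1, so the direction depends on the measure. Each of the 8 was higher in CA1 in 16 to 20 of 22 rats. This is a description, without a test, since the regions were separate tables.

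The other lists were read beside the members. Of 22 tested genes of wider microglial identity, 0 passed for LPS or for age in either region. In young LPS against aged vehicle in CA1, 3 of 22 passed, all lower. Log2 changes were -0.59 for Mertk, a receptor for dying cells (SE 0.14, limma adjusted p = 0.049) and -0.57 for Tgfbr1, a receptor for TGF-beta (SE 0.16, limma adjusted p = 0.049). Aged rat 2532 was the highest aged library for both, with 2003 and 1301 normalized counts, and without it 0 genes of any list passed in this comparison. Of 9 microglial transcription factors, 0 passed in any comparison. Of 8 genes for ligands and their release, Adam10, a protease that sheds fractalkine, was lower in LPS than in aged rats in CA1 (-0.68 on the log2 scale, SE 0.20, limma adjusted p = 0.049), again with aged rat 2532 highest, at 2828. The ligand genes Cx3cl1, Csf1 and Il34 had LPS changes of 0.21, 0.19 and 0.25 in CA1, each with a limma adjusted p of 0.653 to 0.66.

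Of 13 tested genes of activated microglia, 0 passed for LPS or age in either region. Fcgr2b, an inhibitory IgG receptor, passed in young LPS against aged vehicle in CA1, at 109.8 ± 28.9 (SD) over the 8 LPS and 294 ± 193 (SD) over the 6 aged libraries (log2 change -1.26, SE 0.24, limma adjusted p = 0.049). In DG the 6 aged libraries averaged 152 ± 21.4 (SD) and the 8 young vehicle libraries 91.0 ± 13.1 (SD). Those DG groups did not overlap, from 132 to 187 in aged and from 67.3 to 112 in young libraries (log2 change 0.74, SE 0.14, limma adjusted p = 0.0791). This change did not pass, and how many of all genes separated these groups is not given here. Of 5 perivascular macrophage genes, 0 passed in any comparison. The summed level in CA1 covered all 7 genes of the list, with those below the filter included. It ran from 108 to 183 normalized counts in young LPS and from 132 to 244 in aged vehicle libraries. Of the other lists, 1 of 9 endothelial genes (Egfl7, 0.56) and 1 of 6 neuronal genes (Rbfox3, 0.83) were higher in LPS than in aged rats in CA1, where 8.73% of all genes passed. The neuronal list had a median of -0.21 with 2 of 6 positive. The median log2 change of the 5 perivascular genes in that comparison was -0.87, with 4 of 5 negative, beside -0.87 for Gpr34, with F13a1 at -0.99, Cd163 at -0.95 and Mrc1 at -0.87, and their part in the change of Gpr34 was not tested.

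Over 22 libraries of a region with group means removed, the 36 pairs had a median Pearson's r of 0.35 in CA1, with 9 above 0.5 and 7 below 0, and of 0.42 in DG, with 12 above 0.5 and 8 below 0. The libraries of a pair share depth and dissection, so these values are descriptions without a p. Csf1r and Laptm5 were the closest pair in CA1, at 0.93, and Csf1r and Olfml3 the closest in DG, at 0.77. By Spearman's rho that DG pair was at 0.60, below Aif1 and P2ry13 at 0.77, and vehicle rats 2526 and 2572 held the highest DG values of both Csf1r and Olfml3. Gpr34 in CA1 was at 0.58 with Aif1, 0.32 with P2ry13 and 0.20 with Cx3cr1, and at -0.38 with Csf1r, -0.38 with Laptm5 and -0.46 with Sall1. With the mean of the 9 genes, itself included, Gpr34 was at 0.11 in CA1. Its most alike genes there were Orc4, Bcap29 and LOC498453, each at 0.91. Its 50 most alike genes there held 0 other members and 0 genes of the wider microglial list. Aif1 and P2ry13 were at 0.55 in CA1 and 0.73 in DG, while Aif1 and P2ry12 were at -0.02 and -0.18. Among the 50 genes most like each member, 7 of 9 members in CA1 had 0 others of the list. Csf1r had Laptm5 together with Adgrg1, Vsir and P2ry6, and Laptm5 had Csf1r together with Vsir, Adgrg1 and C1qc. The non-member genes most like the mean of the 9 were Pbxip1, Masp1 and Hcls1 in CA1 (0.88, 0.87 and 0.86) and Srgn, Padi2 and Slco1c1 in DG (0.92, 0.88 and 0.88).

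**Figure D4:**
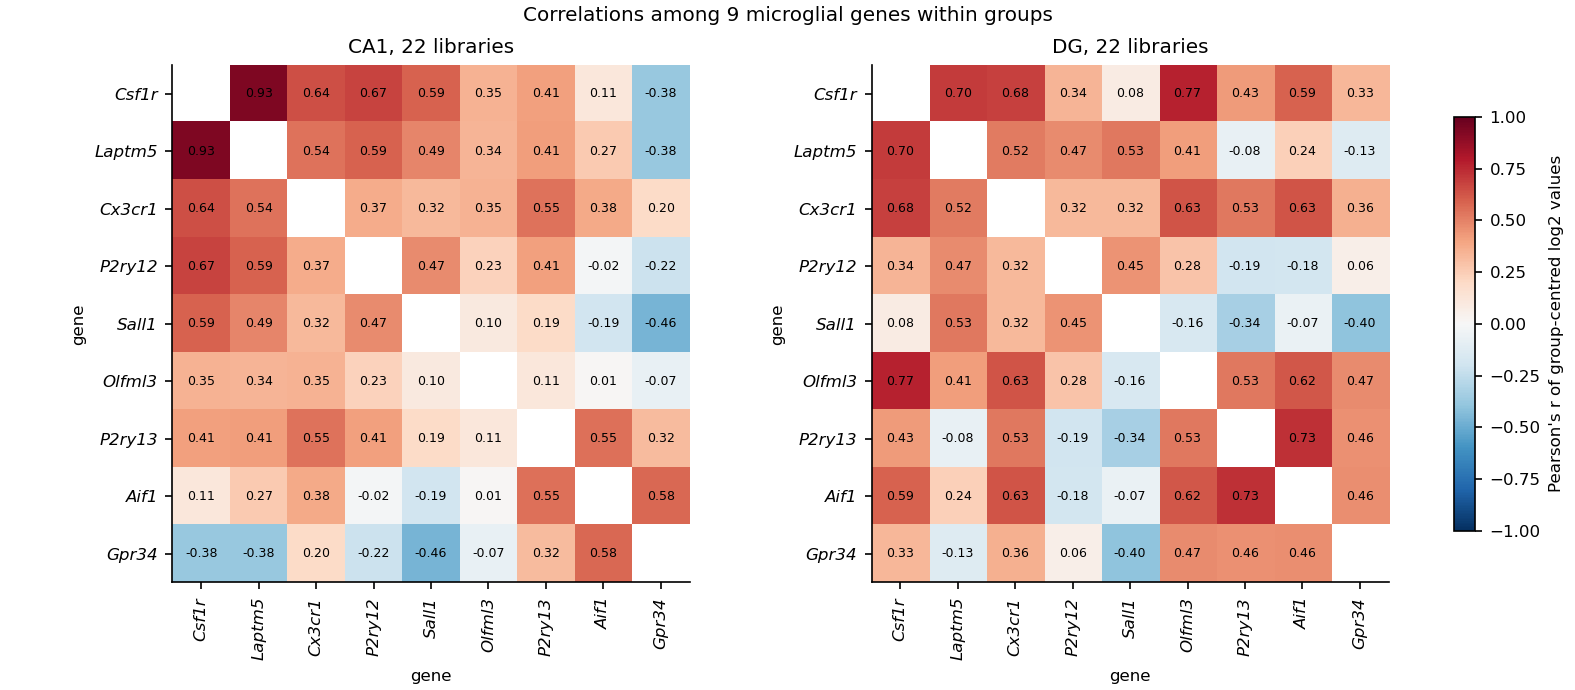
Pearson's r of group-centred log2 values for each pair of the 9 genes over 22 libraries, in CA1 and DG (colour from -1 to 1, value in each cell). Csf1r and Laptm5 are the highest pair in CA1, at 0.93, and the Gpr34 row there is positive against Aif1 and negative against Csf1r, Laptm5 and Sall1.

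The relation of P2ry12, which inflamed microglia are known to lose, to Aif1, the general label, was taken as the difference of their log2 values within a library. In CA1 it averaged 0.46 ± 0.43 (SD) over the 8 LPS, 0.06 ± 0.50 over the 6 aged and 0.19 ± 0.54 over the 8 young vehicle libraries. In DG the averages were 0.13 ± 0.70 in young LPS, 0.64 ± 0.23 in aged vehicle and 0.57 ± 0.38 in young vehicle. The order of the groups was not the same in the 2 regions, and every pair of groups overlapped. The difference of Sall1 and Csf1r averaged -1.48 ± 0.24 in young LPS, -1.36 ± 0.15 in aged vehicle and -1.48 ± 0.32 in young vehicle in CA1. In DG it averaged -1.36 ± 0.27, -1.50 ± 0.22 and -1.60 ± 0.42 in young LPS, aged vehicle and young vehicle.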

How the data were processed

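The authors deposited 1 table per region of normalized counts (signal), with 20003 CA1 rows and 20050 DG rows, each table scaled separately. Per the submitters' processing notes, the tools were STAR, Partek and DESeq2 and the build rn6, and versions and annotation are not stated in the labels. Dividing by the value of 1 read gave whole reads (tolerance 0.1) for at least 99.63% of values per library; in CA1 libraries 2571 and 2411 that value is near 1 and could not be checked. limma 3.58.1 (R 4.3.3, trend, robust) was fitted to log2(value + 1), which understates changes of low genes, with 3 groups per fit, over genes reaching 10 in 6 or more libraries. Benjamini-Hochberg adjustment covered all genes (threshold 0.05). The fits were tested on simulated data. edgeR 4.0.16 and DESeq2 1.42.0 on recovered reads, other filters, pseudocounts and scaling, and leaving out libraries were alternatives. Replicates are separate rats. The region test pairs libraries by rat number in the titles, which marks 1 shared hippocampus; deviations of a rat's 2 libraries had a median correlation of 0.051, above 0.1 in 8 of 22 rats. The lowest chi-square per gene between replicates was 4.67, so none was counted as a copy. The members and lists were chosen with earlier results of these data known. All 9 members are named, and from other lists up to 3 genes per comparison with the smallest p; some are not reported here.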

Additional observations from a re-analysis of the deposited data

Results flagged for a closer look

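Of 54 groups of a member in a region, 1 held a library far from the others, where chance gives about 2.7. For Cx3cr1 in DG, aged rat 2531 had 331 normalized counts and the other 5 aged rats had 406 to 443.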

How the results depend on the processing

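Of 72 changes of a member, 50 kept their sign under every alternative and 22 did not; all 22 were smaller than their own SE, and the cause was not tested. The single call, Gpr34 in young LPS against aged vehicle in CA1, held under both pseudocounts, a mean of at least 50, TMM, edgeR, DESeq2 and the number series (leading digits of the animal number) as a term. It was lost (0 members) without a filter (adjusted p = 0.0655), with only the 2 groups compared (0.0914) and without rats 2526, 2572 and 2532 (0.0974). Leaving out 1 library gave 0 to 1 members: the call was lost in 15 of 22 cases, without LPS rats 2404, 2408, 2527, 2543 or 2717, aged rats 2415, 2420, 2531 or 2532, or vehicle rats 2410, 2526, 2571, 2722, 2728 or 2731, with changes from -1.03 to -0.67 and adjusted p from 0.0223 to 0.121. Genes called in that comparison were 1302, but 3 without a filter, 0 with 2 groups, 5 without the 3 rats, 2144 by edgeR, 3299 by DESeq2 and 2910 with the number series; the other member counts stayed at 0. With no replicate block, the Aif1 LPS difference between regions stayed at -0.47 (adjusted p = 0.443), and no call changed. Log2 changes of opposite sign were, without rats 2526, 2572 and 2532: Aif1 (age in DG) 0.18, Cx3cr1 (LPS in DG) 0.070, P2ry12 (LPS in CA1) 0.037, P2ry13 (LPS in DG) 0.057, Sall1 (LPS against aged in CA1) -0.049, Laptm5 (age in CA1) 0.19, Laptm5 (age in DG) 0.067, Olfml3 (LPS against aged in DG) 0.17. With the number series as a term: Cx3cr1 (age in DG) -0.10, P2ry13 (LPS in CA1) -0.059, Csf1r (age in CA1) -0.075, Csf1r (age in DG) -0.0049, Csf1r (age by region) -0.070, Gpr34 (LPS in DG) -0.063, Sall1 (age by region) -0.0060, Laptm5 (LPS in CA1) -0.0053, Laptm5 (age by region) -0.065. The number series is spread unevenly over the groups: no aged rat is in series 27, and rat 2410 is the only young vehicle rat in series 24. By edgeR: Cx3cr1 (LPS against aged in CA1) -0.0011, P2ry13 (LPS in CA1) -0.044. By DESeq2: P2ry13 (LPS in CA1) -0.041. Leaving out 1 library, or 1 rat for the region tests, gave ranges that crossed 0: Aif1 (age in DG) -0.079 to 0.084, Cx3cr1 (LPS against aged in CA1) -0.041 to 0.15, Cx3cr1 (LPS in DG) -0.099 to 0.017, Cx3cr1 (age in DG) -0.016 to 0.10, P2ry12 (LPS in CA1) -0.11 to 0.043, P2ry12 (age by region) -0.067 to 0.14, P2ry13 (LPS in CA1) -0.15 to 0.14, P2ry13 (LPS in DG) -0.16 to 0.016, P2ry13 (LPS by region) -0.070 to 0.24, Csf1r (age in CA1) -0.017 to 0.13, Csf1r (age in DG) -0.020 to 0.12, Csf1r (age by region) -0.093 to 0.13, Gpr34 (LPS in DG) -0.099 to 0.14, Sall1 (LPS against aged in CA1) -0.049 to 0.084, Sall1 (LPS against aged in DG) -0.16 to 0.0071, Sall1 (LPS by region) -0.015 to 0.18, Sall1 (age by region) -0.099 to 0.12, Laptm5 (age in CA1) -0.12 to 0.10, Laptm5 (age in DG) -0.088 to 0.046, Laptm5 (age by region) -0.099 to 0.16, Olfml3 (LPS against aged in DG) -0.12 to 0.17. For P2ry13 in CA1, counting error was 10.51% of the mean and the spread between aged rats 11.3%.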
